A study of Homo sapiens with 9 samples.

Results

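Aminoacyl-tRNA synthetases are the enzymes that attach each amino acid to its transfer RNA, the step that sets which amino acid a codon calls for. Human cells keep separate enzymes for the cytosol and for the mitochondrion, nearly all of them from different nuclear genes, and mitochondrial enzymes carry the number 2 in their symbols. Several cytosolic enzymes sit together in the multi-synthetase complex on small scaffold proteins, and transcripts of many cytosolic enzymes belong to the amino acid response that the transcription factor ATF4 drives. Of 36 synthetase genes listed by symbol, 35 were found among the 31080 reference genes in the files. They comprised 18 genes of cytosolic enzymes, 15 of mitochondrial enzymes and 2 genes, GARS (glycine) and KARS (lysine), that encode the enzyme of both compartments. SARS2 was not analysed here, so mitochondrial serine charging is not described. HARS2 shared its row with the neighbouring gene ZMAT2, and its values belong to both genes together.

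The study examined the role of Cyclin K, the cyclin partner of the transcriptional kinases CDK12 and CDK13, in the radioresistance of lung cancer. Beside assays of growth, DNA damage and protein interaction, it sequenced RNA of A549 cells, an established line from a human lung adenocarcinoma, after loss of Cyclin K. Cells were transfected for 48 h with a scrambled siRNA (labelled siCtrl) or with either of 2 siRNAs against Cyclin K, siCyclin K#1 and siCyclin K#2, and each group had 3 libraries. All groups shared the parental cells, the transfection and the time, and the knock-down was transient. Nothing in the labels says whether the libraries came from separate cultures, so the p-values measure only the spread between these libraries. Levels are FPKM, fragment counts scaled by transcript length and by the size of the library. A gene is called higher or lower where the adjusted p from limma across 21048 genes was below 0.05, and a log2 fold change is the difference between group means of log2(FPKM + 0.1), given ± its SE.

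CCNK, the gene of Cyclin K, averaged 7.02 ± 0.107 FPKM (SD, n = 3) in the scrambled siRNA libraries, 0.809 ± 0.0857 after siCyclin K#1 and 0.844 ± 0.0661 after siCyclin K#2. Its log2 fold changes were -2.97 and -2.92, and the difference between the siRNAs was -0.06 (adjusted p = 0.73). The estimated depth was 31333532 to 33767883 reads per library. Of the epithelial and A549 markers, KRT8, KRT18, ALDH1A1 and AKR1C1 were at 19.6 FPKM or above in every library, CDH1 was at 1.19 to 4.60, and KRT19 was listed at no more than 0.108. PTPRC (leukocytes), PECAM1 and VWF (endothelium) and the fibroblast genes COL1A2 and PDGFRB did not exceed 0.136 FPKM in any library. The fibroblast gene COL1A1 was at 1.79 to 2.21 FPKM in the controls, at 13.7 to 14.7 after siCyclin K#1 and at 3.10 to 3.30 after siCyclin K#2.

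Promoter sequences are given first, since ATF4 is known to act on synthetase genes there. RefSeq promoters (build GRCh38.p14, 250 bases before to 50 bases after the annotated start) were matched for 29 of the 35 genes. DARS, LARS, VARS, YARS, AARS2 and VARS2 had no entry. The letters TGATGNAA, searched on both strands, are the CARE, the combined C/EBP and ATF element through which ATF4 acts on target genes. They were present in 6 of 14 cytosolic promoters (42.9%), in 1 of 13 mitochondrial promoters (7.69%) and in 3.62% of all 35116 promoters. The 6 cytosolic promoters all held the form TGATGCAA, which 0.866% of all promoters hold. These 6 sites are shown on the gene's strand with 9 bases on each side and the element in capitals, because the genes that carry them are followed through the results below. A match describes these letters and is not evidence of binding.
AARS (chr16:70289677-70289702, minus strand): ttctcgcagTTGCATCAgccaagtta
CARS (chr11:3057409-3057434, minus strand): gggcggcggTTGCATCAgattctagg
IARS (chr9:92293694-92293719, minus strand): ttcagcgcgTTGCATCAcctccgtgc
MARS (chr12:57488055-57488080, plus strand): cggttccggTTGCATCAgcgagggat
NARS (chr18:57621806-57621831, minus strand): tacgctctcTGATGCAAcgccggaat
TARS (chr5:33440958-33440983, plus strand): gcctttcgaTTGCATCAgctggtcca

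In 5 of them the element began between -13 and 14 bases from the annotated start, and in AARS at -187. The other motifs searched were the E-box CACGTG, bound by MYC and related factors, and GCATGCGC, core letters of the site of NRF1, a factor of many genes for mitochondrial proteins, both on either strand. The E-box was in 1 of 14 cytosolic and 3 of 13 mitochondrial promoters (7.26% of all promoters). The NRF1 letters were in 0 of 14 cytosolic and 2 of 13 mitochondrial promoters, those of MARS2 and YARS2 (3.05% of all promoters). MARS2, the mitochondrial methionine enzyme, held both motifs close to its start. MARS2 was picked for display because it had the largest fall of the 35 genes. YARS2, the other gene with the NRF1 letters, was called with siCyclin K#2 alone, and higher (log2 fold change 0.41, adjusted p = 0.0056). A link between the letters and the changes was not tested. The NRF1 letters of MARS2, which overlap a second match on the other strand, are shown in capitals.
MARS2 (chr2:197705335-197705360, plus strand): cccggctgcGCATGCGCctctcacac

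Cytosolic enzymes were the more abundant class. In cells with scrambled siRNA the 18 cytosolic transcripts summed to 553 ± 5.69 FPKM (SD, n = 3), with a median of 27.5 FPKM per gene. The 15 mitochondrial transcripts summed to 145 ± 2.52 FPKM, with a median of 3.87 FPKM per gene. Levels ran from 1.31 ± 0.119 FPKM for PARS2 (mitochondrial proline) to 62.9 ± 1.09 FPKM for IARS2 (mitochondrial isoleucine). IARS2 was the exception in its class: it ranked above every cytosolic enzyme by its mean, although its libraries overlapped those of the next gene, EPRS (cytosolic glutamate and proline, 61.6 ± 0.712 FPKM). The second mitochondrial enzyme in the order was MARS2, at 15.2 ± 0.387 FPKM. Of the 34 pairs of neighbours in the order of levels, 21 had overlapping scrambled siRNA libraries, so the order is coarse. The least covered gene was PARS2, with an estimated 92 to 127 reads per library, and 11 genes, all of them mitochondrial, had a median under 1000 reads.

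**Figure D1:**
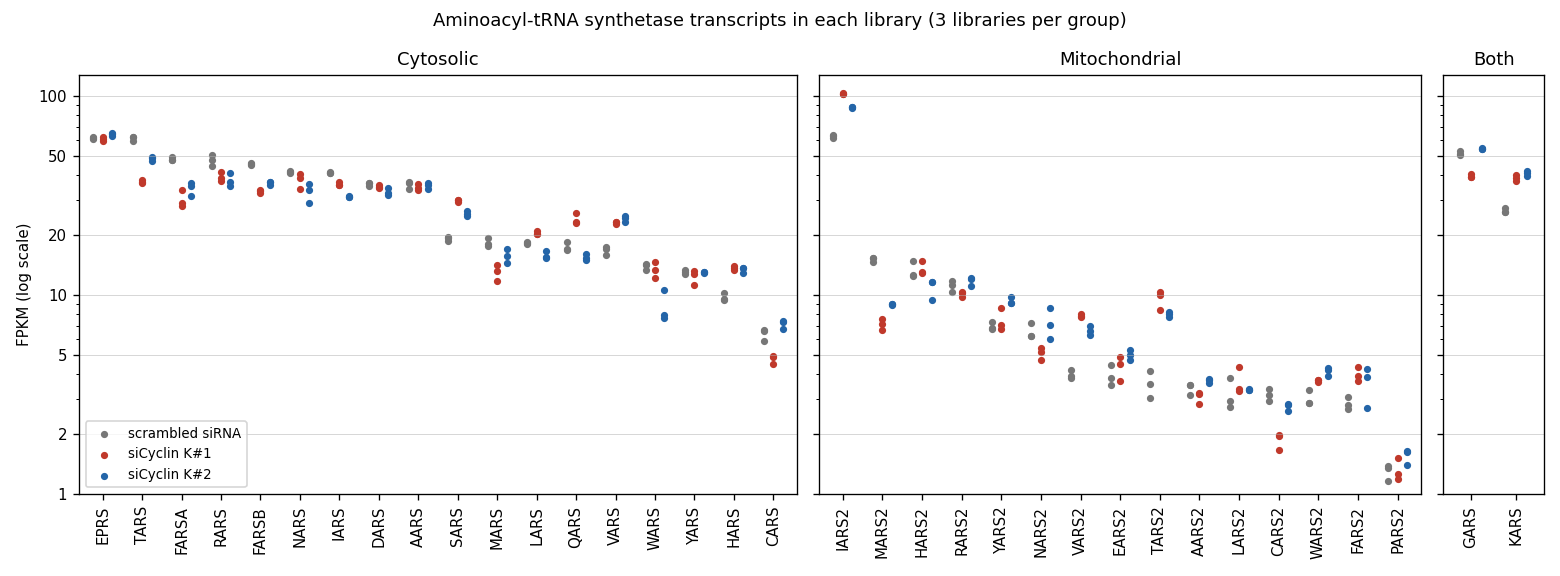
FPKM of the 35 synthetase genes in each of the 9 libraries, on a log axis, by class and in order of the scrambled siRNA mean. Each point is 1 library (3 per group). IARS2 stands with the most abundant cytosolic enzymes at 61.7 to 63.8 FPKM in scrambled siRNA, while most mitochondrial enzymes lie below 10 FPKM.

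With siCyclin K#1, 11 of the 35 genes were called higher (31.4%) and 11 lower (31.4%). Over all 21048 genes tested, 26.8% were called higher and 18.1% lower. All 35 belong to the 11243 expressed genes, those whose mean over the libraries reached 1 FPKM, and of these 36.5% were higher and 27.8% lower. With siCyclin K#2, 9 genes were higher (25.7%) and 11 lower (31.4%). The share over all genes was 19.8% higher and 15.2% lower, and among expressed genes it was 31.1% higher and 22.4% lower. For siCyclin K#1 the shares of the family lay close to those of expressed genes, so the number of calls is no result about the family, and what follows concerns the single genes. No member passed the limits in the study's methods, a fold change over 3 with an unadjusted p below 0.01, which 4.67% of all genes passed for siCyclin K#1 and 1.94% for siCyclin K#2. The largest change was 2.65-fold. The study's results text, unlike its methods, states its count of changed genes for a change of 2-fold or more. At a fold change over 2 with the same p, a limit chosen here after the data were seen, TARS2 passed with both siRNAs and MARS2 with siCyclin K#1. That limit was passed by 13.4% of all genes for siCyclin K#1 and by 7.23% for siCyclin K#2.

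The calls were divided between the classes as follows. Among cytosolic enzymes, 5 of 18 rose and 7 fell with siCyclin K#1 (27.8% and 38.9%), and 3 rose and 10 fell with siCyclin K#2 (16.7% and 55.6%). Their median log2 fold changes were -0.07 and -0.19. Among mitochondrial enzymes, 5 of 15 rose and 3 fell with siCyclin K#1 (33.3% of the class rose), and 5 rose and 1 fell with siCyclin K#2 (33.3% and 6.67%). Their medians were 0.09 and 0.24. The medians over all genes tested were 0.10 and 0.01, and over expressed genes 0.08 and 0.04. Among expressed genes 36.5% rose and 27.8% fell with siCyclin K#1, and 31.1% rose and 22.4% fell with siCyclin K#2. The mitochondrial shares that rose were thus close to those of expressed genes. All genes with a median under 1000 reads were mitochondrial, so counts of calls are not strictly comparable between the classes. These counts and medians describe the classes, and the difference between the classes was not tested.

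Summed over the class, cytosolic transcripts were at 548 to 559 FPKM in the scrambled siRNA libraries, at 495 to 503 after siCyclin K#1 and at 478 to 502 after siCyclin K#2. The summed mitochondrial transcripts were at 142 to 147 FPKM in the controls, 183 to 188 (siCyclin K#1) and 171 to 178 (siCyclin K#2). In both classes no library of either siRNA overlapped the scrambled siRNA libraries, with the cytosolic sum below and the mitochondrial sum above them. Total FPKM over all rows also fell. It was at 260555 to 262993 in the controls, 249564 to 251584 (siCyclin K#1) and 246001 to 247212 (siCyclin K#2). The class sums are not scaled to this total. The median log2 fold change over all genes tested was not below 0, at 0.10 and 0.01. How far the cytosolic fall is particular to the class was not tested. The median cytosolic level did not follow its sum, at 27.5 ± 0.929 FPKM in the controls, 30.0 ± 1.25 after siCyclin K#1 and 28.1 ± 0.361 after siCyclin K#2. IARS2 alone supplied 62.9 of the mitochondrial 145 FPKM and rose to 103 and 88.1 FPKM, so the mitochondrial sum rests largely on this gene. The median mitochondrial level, which IARS2 does not set, went from 3.87 ± 0.0462 FPKM to 5.15 ± 0.276 (siCyclin K#1) and 6.47 ± 0.509 (siCyclin K#2). These median levels also move when genes change rank, and the median log2 fold changes of the mitochondrial class were the smaller 0.09 and 0.24. With bulk RNA, a change in the number of transcripts per cell cannot be told apart from a change in the share of cells that make them.

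**Figure D2:**
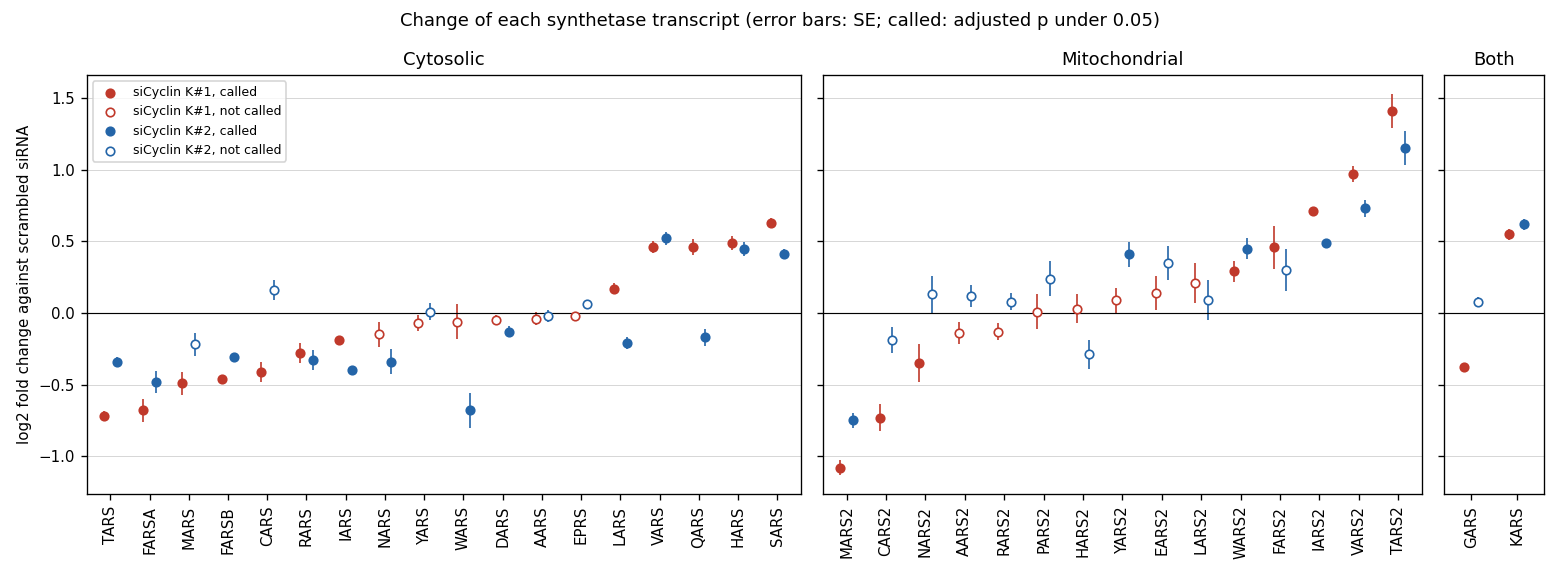
The log2 fold change of each synthetase gene against scrambled siRNA for both siRNAs, by class, with SE as error bars and filled points for an adjusted p below 0.05. TARS2 (1.41 and 1.15) is at the top of the mitochondrial panel and MARS2 (-1.08 and -0.75) at the bottom, while no cytosolic gene is beyond -0.72 or 0.63.

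Mitochondrial enzymes held the largest changes in both directions. TARS2, the mitochondrial threonine enzyme (chr1:150487364-150507609, plus strand), was at 3.57, 3.03 and 4.15 FPKM in the scrambled siRNA libraries. It was at 8.43, 10.0 and 10.4 FPKM with siCyclin K#1, and its siCyclin K#2 libraries ran from 7.77 to 8.24. Every knock-down library was above every control library, at 2.65-fold (log2 1.41 ± 0.12, adjusted p = 1.5e-05) and 2.22-fold (1.15 ± 0.12, adjusted p = 8.7e-05). The siRNAs differed by 0.26 ± 0.12 on the log2 scale, which did not pass the test (adjusted p = 0.14).

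VARS2 (mitochondrial valine; chr6:30908242-30926459) was at 4.19, 3.92 and 3.84 FPKM in the controls, at 8.08, 7.79 and 7.86 after siCyclin K#1 and at 7.03, 6.63 and 6.33 after siCyclin K#2. It rose by 0.97 ± 0.057 (adjusted p = 1.9e-06) and 0.73 ± 0.057 (adjusted p = 2e-05) on the log2 scale. VARS2 shares 1858 exonic bases, 22.0% of its exons, with GTF2H4 on the same strand, so its value can hold reads of that gene. IARS2 (chr1:220094102-220148041) was at 61.7, 63.8 and 63.2 FPKM in the controls, at 103, 102 and 104 after siCyclin K#1 and at 88.6, 87.0 and 88.6 after siCyclin K#2. It had the smallest error of the family, with rises of 0.71 ± 0.026 (adjusted p = 1.2e-07) and 0.49 ± 0.026 (adjusted p = 2.1e-06), and the difference of 0.23 between the siRNAs also passed the test (adjusted p = 0.00023). WARS2 (mitochondrial tryptophan) was the fourth mitochondrial gene that rose with both siRNAs, from 3.02 ± 0.257 FPKM to 3.72 ± 0.0368 and 4.14 ± 0.193 (adjusted p = 0.010 and 0.0015). With quantile normalization its call for siCyclin K#1 was lost (0.13, adjusted p = 0.21).

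MARS2 (chr2:197705369-197708387, plus strand) was the mitochondrial enzyme that fell with both siRNAs. The gene spans 3019 bases, all of them exonic, so it has no intron. Its libraries were at 15.4, 15.4 and 14.7 FPKM in the controls, at 6.66, 7.56 and 7.17 after siCyclin K#1 and at 8.93, 8.98 and 9.05 after siCyclin K#2. The groups did not overlap, and the level was 0.473 and 0.595 of the control (log2 -1.08 ± 0.052, adjusted p = 6.1e-07, and -0.75 ± 0.052, adjusted p = 9.2e-06). CARS2 (mitochondrial cysteine) fell with siCyclin K#1, from 2.95, 3.16 and 3.38 FPKM to 1.96, 1.66 and 1.99 (log2 -0.73 ± 0.091, adjusted p = 0.00019). With siCyclin K#2 it was at 2.85, 2.80 and 2.63 FPKM (-0.19, adjusted p = 0.15), and the difference between the siRNAs passed the test (-0.54 ± 0.091, adjusted p = 0.0021).

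The remaining mitochondrial calls were near the threshold or came from 1 siRNA. FARS2 (phenylalanine) was called higher with siCyclin K#1 (0.46 ± 0.15, adjusted p = 0.036) and NARS2 (asparagine) lower (-0.35 ± 0.13, adjusted p = 0.049). NARS2 was at 6.21, 7.28 and 6.22 FPKM in the controls, at 5.41, 5.17 and 4.74 after siCyclin K#1 and at 8.64, 6.04 and 7.04 after siCyclin K#2. Both of these calls for siCyclin K#1 were lost in many alternatives. FARS2 reached an adjusted p of 0.051 to 0.16 in those that lost it, the highest after quantile normalization, and was lost without scrambled siRNA replicate 1 or 3 or any 1 siCyclin K#1 library. NARS2 reached 0.051 to 0.15 and was lost on leaving out any 1 control or siCyclin K#1 library or siCyclin K#2 replicate 3. YARS2 (tyrosine) rose with siCyclin K#2 from 6.99 ± 0.290 to 9.34 ± 0.437 FPKM (0.41, adjusted p = 0.0056) and was at 7.49 ± 0.957 with siCyclin K#1. AARS2, EARS2, HARS2, LARS2, PARS2 and RARS2 (alanine, glutamate, histidine, leucine, proline and arginine) were called with neither siRNA, and their log2 fold changes lay between -0.29 and 0.35. In some alternatives EARS2 was called higher (adjusted p = 0.026 to 0.047) and HARS2 lower (0.031 to 0.042) with siCyclin K#2. With siCyclin K#1 RARS2 was called lower in some (0.026 to 0.035), and AARS2 after quantile normalization (0.011). For siCyclin K#2 FARS2 was called higher without siCyclin K#2 replicate 2 (adjusted p = 0.0069), and CARS2 lower after quantile normalization (adjusted p = 0.047).

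Among cytosolic enzymes, the largest fall was that of TARS (threonine; chr5:33440696-33469539), which carries the CARE shown above. TARS was at 62.3, 59.3 and 62.5 FPKM in the controls, at 37.7, 36.8 and 36.9 after siCyclin K#1 and at 49.0, 47.0 and 49.2 after siCyclin K#2. The 3 groups were fully separate, with log2 fold changes of -0.72 ± 0.034 (adjusted p = 5.2e-07) and -0.34 ± 0.034 (adjusted p = 7.1e-05).

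Phenylalanine charging in the cytosol needs an enzyme built from the alpha subunit FARSA and the beta subunit FARSB, and both subunits fell with both siRNAs. FARSA (chr19:12922479-12934037) went from 47.6, 47.8 and 49.3 FPKM to 28.9, 28.0 and 33.6 after siCyclin K#1 and 36.6, 31.4 and 35.5 after siCyclin K#2. Its log2 fold changes were -0.68 ± 0.078 (adjusted p = 0.00011) and -0.48 ± 0.078 (adjusted p = 0.0013). FARSB went from 46.2, 44.9 and 45.8 FPKM to 33.9, 32.5 and 33.2 and to 37.0, 35.9 and 37.1, with log2 fold changes of -0.46 ± 0.030 (adjusted p = 3.9e-06) and -0.31 ± 0.030 (adjusted p = 6.4e-05). The subunits were at nearly equal levels in each group, 48.2 and 45.6 FPKM in the controls, 30.2 and 33.2 under siCyclin K#1 and 34.5 and 36.7 under siCyclin K#2.

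IARS (isoleucine) and RARS (arginine) completed the 5 cytosolic genes that fell with both siRNAs. IARS fell from 41.3 ± 0.493 FPKM to 36.3 ± 0.613 and 31.2 ± 0.195 (adjusted p = 0.00053 and 8.6e-06), and RARS from 47.6 ± 3.00 to 39.2 ± 1.97 and 37.9 ± 2.94 (adjusted p = 0.0093 and 0.0053). MARS (methionine) and CARS (cysteine) were called lower with siCyclin K#1 alone, MARS from 17.6 to 19.4 FPKM over the control libraries to 11.8 to 14.1 (log2 -0.49 ± 0.080, adjusted p = 0.00093) and CARS from 5.87, 6.69 and 6.62 FPKM to 4.91, 4.49 and 4.96 (adjusted p = 0.0015). With siCyclin K#2 MARS was at 14.5 to 17.1 FPKM (adjusted p = 0.063) and CARS at 7.29, 6.75 and 7.41 (adjusted p = 0.12), and for both genes the difference between the siRNAs passed the test, at -0.27 (adjusted p = 0.032) and -0.57 (adjusted p = 0.00043). Neither result for MARS was firm. With siCyclin K#2 it was called lower in 6 alternatives (adjusted p = 0.031 to 0.044), among them both other scalings and the replicate block, and the difference between the siRNAs was lost in others, to adjusted p of 0.061 to 0.10. MARS shares 355 exonic bases, 5.05% of its exons, with DDIT3 on the opposite strand, and whether the libraries keep strand is not stated.

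DARS (aspartate), NARS (asparagine) and WARS (tryptophan) were called lower with siCyclin K#2 and not with siCyclin K#1. WARS was at 14.4, 14.1 and 13.3 FPKM in the controls, at 14.6, 13.3 and 12.2 after siCyclin K#1 and at 7.98, 7.66 and 10.6 after siCyclin K#2. Its control and siCyclin K#1 libraries overlapped, whereas the siCyclin K#2 libraries lay below all others (log2 -0.68 ± 0.12, adjusted p = 0.0021). The difference of 0.62 ± 0.12 between the siRNAs passed the test (adjusted p = 0.0044). NARS fell by 0.34 ± 0.087 on the log2 scale with siCyclin K#2 (adjusted p = 0.014) and DARS by 0.13 ± 0.036 (adjusted p = 0.020), and neither differed between the siRNAs by the test (adjusted p = 0.13 and 0.11). The call of DARS was lost without the trend in the moderation (adjusted p = 0.11) and on leaving out scrambled siRNA replicate 2 or 3 or siCyclin K#2 replicate 1 or 2 (adjusted p = 0.058 to 0.067). AARS (alanine), EPRS and YARS (tyrosine) were called with neither siRNA, with log2 fold changes from -0.07 to 0.06.

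SARS (serine), HARS (histidine) and VARS (valine) were the cytosolic enzymes that rose with both siRNAs. SARS (chr1:109213918-109238169) went from 18.8, 19.7 and 19.3 FPKM to 30.0, 30.2 and 29.5 with siCyclin K#1 and to 25.6, 25.0 and 26.5 after siCyclin K#2, so the groups did not overlap. It rose 1.55-fold (0.63 ± 0.035, adjusted p = 1.5e-06) and 1.33-fold (0.41 ± 0.035, adjusted p = 3.3e-05). HARS rose from 10.3, 9.53 and 9.46 FPKM to 13.7, 13.4 and 14.0 and to 13.7, 13.7 and 12.9 (0.49, adjusted p = 4.9e-05, and 0.45, adjusted p = 0.00012). HARS and HARS2 lie head to head on chromosome 5 and share 437 exonic bases on opposite strands (chr5:140691426-140691862). VARS rose from 17.5, 15.9 and 17.0 FPKM to 23.3, 22.8 and 23.3 and to 24.9, 23.4 and 24.3 (0.46, adjusted p = 3.7e-05, and 0.52, adjusted p = 2.9e-05).

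QARS (glutamine; chr3:49095932-49105135) and LARS (leucine) were called in opposite directions by the siRNAs. QARS was at 16.9 to 18.6 FPKM in the scrambled siRNA libraries, at 23.4, 25.8 and 23.1 after siCyclin K#1 and at 15.1, 15.3 and 16.1 after siCyclin K#2. The siCyclin K#1 libraries were above and the siCyclin K#2 libraries below all controls. The rise was clear (0.46 ± 0.058, adjusted p = 0.00021), whereas the fall was close to the threshold (-0.17 ± 0.058, adjusted p = 0.046) and was lost under other settings. LARS was at 18.3 ± 0.223 FPKM, then at 20.2, 20.4 and 21.1 and at 16.6, 15.5 and 15.4 (0.17 ± 0.040, adjusted p = 0.0077, and -0.21 ± 0.040, adjusted p = 0.0039).

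The genes that serve both compartments behaved differently from each other. KARS (chr16:75627474-75648643) was at 27.4, 26.2 and 26.1 FPKM in the controls, at 39.0, 37.6 and 40.2 after siCyclin K#1 and at 42.2, 39.9 and 41.0 after siCyclin K#2. It rose with both, by 0.55 ± 0.039 (adjusted p = 5.6e-06) and 0.62 ± 0.039 (adjusted p = 5.1e-06) on the log2 scale. GARS (chr7:30594681-30634033) was at 51.3, 50.8 and 52.7 FPKM, then at 40.8, 39.3 and 39.1 and at 54.4, 54.4 and 54.7. It fell with siCyclin K#1 (-0.38 ± 0.029, adjusted p = 1e-05) and was 0.08 above the control with siCyclin K#2 (adjusted p = 0.068). GARS was called higher with siCyclin K#2 after quantile normalization (adjusted p = 0.023) and when only expressed genes were tested (adjusted p = 0.042).

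The siRNAs were also set against each other directly. With siCyclin K#1, 8 of the 35 genes were higher than with siCyclin K#2 (22.9%) and 11 were lower (31.4%). Over all genes the shares were 17.1% and 12.3%, and among expressed genes 23.7% and 20.8%. No member passed the 3-fold threshold, which 1.53% of all genes passed, nor the 2-fold limit, which 5.36% passed. Cytosolic genes were higher in 5 and lower in 4 of 18 cases, with a median difference of 0.00. Mitochondrial genes were higher in 3 and lower in 6 of 15 cases, with a median of -0.21. The largest differences were those of QARS (0.63), WARS (0.62), CARS (-0.57), CARS2 (-0.54), NARS2 (-0.48) and GARS (-0.45), all at an adjusted p of 0.020 or below, of which NARS2 was lost without siCyclin K#1 replicate 2 or 3 or siCyclin K#2 replicate 3 (adjusted p = 0.051, 0.068 and 0.050). The other genes higher with siCyclin K#1 were IARS, LARS, SARS, HARS2, IARS2 and VARS2 (0.22 to 0.38), and the other genes lower were FARSB, MARS, TARS, AARS2, MARS2, RARS2 and YARS2 (-0.38 to -0.14). The calls of HARS2, MARS, RARS2, AARS2, YARS2 and FARSB did not hold in every alternative. The enzymes of cysteine, CARS and CARS2, thus both had their lower level under siCyclin K#1. CCNK itself was at 0.809 and 0.844 FPKM in these groups. Both siRNA comparisons used the same 3 scrambled siRNA libraries, and changes shared by them are not independent.

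For 15 pairs of a cytosolic and a mitochondrial enzyme of the same amino acid, the FPKM of the cytosolic enzyme was divided by that of its partner in each library. The ratio of TARS to TARS2 moved most, because both genes changed and in opposite directions. From 17.4 ± 2.27 (SD, n = 3) in the controls it fell to 3.89 ± 0.505 after siCyclin K#1 and 6.06 ± 0.326 after siCyclin K#2. FARSA against FARS2 went from 16.9 ± 1.45 to 7.56 ± 0.345 and 9.80 ± 1.57. IARS against IARS2 went from 0.657 ± 0.0147 to 0.351 ± 0.00349 and 0.354 ± 0.00311, the same size of shift with both siRNAs and the only pair in which the mitochondrial transcript was the more abundant in all 9 libraries. WARS against WARS2 went from 4.64 ± 0.561 to 3.60 ± 0.326 and 2.13 ± 0.497, and VARS against VARS2 from 4.22 ± 0.181 to 2.93 ± 0.0409 and 3.63 ± 0.174.

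The ratio moved the other way for the amino acids methionine, cysteine and histidine. MARS against MARS2 went from 1.21 ± 0.0926 to 1.84 ± 0.273 and 1.75 ± 0.137, with both genes lower in the mean and MARS2 the more so. CARS against CARS2 went from 2.02 ± 0.0844 to 2.57 ± 0.115 and 2.59 ± 0.206, and HARS against the row of HARS2 and ZMAT2 from 0.741 ± 0.0927 to 1.01 ± 0.0789 and 1.25 ± 0.183. For NARS against NARS2 the siRNAs went apart, from 6.38 ± 0.605 to 7.38 ± 0.185 and 4.63 ± 0.807. Arginine, tyrosine and glutamate had ratios that overlapped the controls after siCyclin K#1 and lay below all of them after siCyclin K#2. RARS against RARS2 was at 4.28 ± 0.327, 3.87 ± 0.292 and 3.22 ± 0.237, YARS against YARS2 at 1.86 ± 0.0522, 1.67 ± 0.191 and 1.40 ± 0.0600, and EPRS against EARS2 at 15.8 ± 1.87, 14.2 ± 2.30 and 12.8 ± 0.579. The ratios of alanine, leucine and proline (AARS, LARS and EPRS against AARS2, LARS2 and PARS2) overlapped the controls with both siRNAs.

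**Figure D3:**
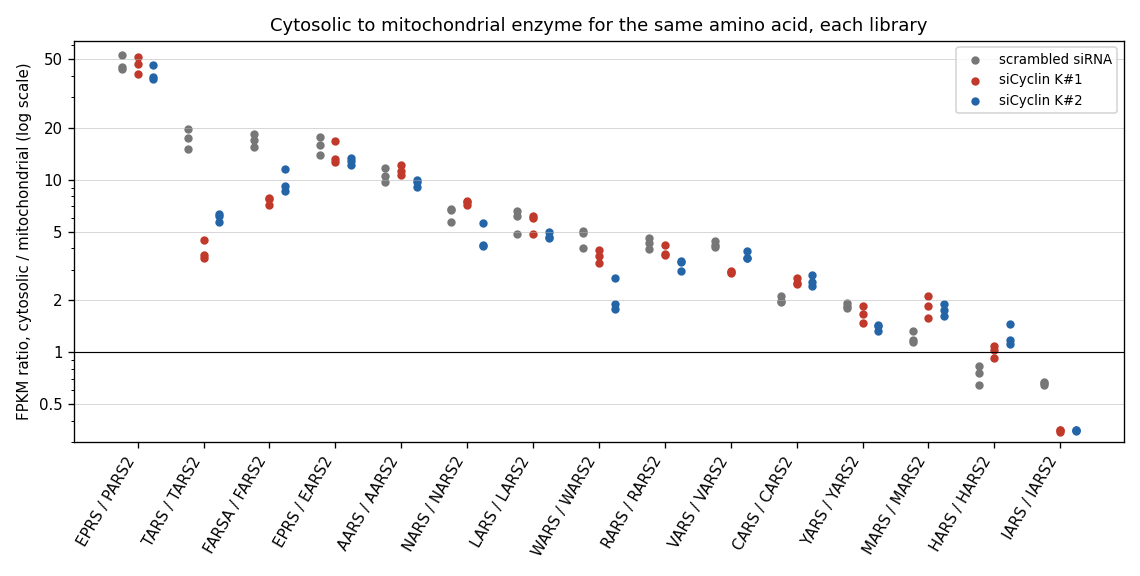
FPKM of the cytosolic enzyme divided by that of the mitochondrial enzyme for the same amino acid, in each library, on a log axis and in order of the scrambled siRNA mean. The line marks equal levels. TARS to TARS2 drops from 17.4 to 3.89 and 6.06, and IARS to IARS2 lies below 1 in every group.

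Some features that were not used to choose the genes are given with the calls. Of the 6 cytosolic genes with a CARE in the promoter, none rose with either siRNA. CARS, IARS, MARS and TARS fell with siCyclin K#1, and IARS, NARS and TARS fell with siCyclin K#2, with medians of -0.30 and -0.28 over the 6. The mitochondrial gene with a CARE, YARS2 (form TGATGGAA), rose with siCyclin K#2 (0.41, adjusted p = 0.0056). Cytosolic genes without a promoter entry, among them VARS, which rose with both siRNAs, could not be counted. Of the 8 cytosolic genes with a promoter in the table and no CARE match in it, 3 rose and 3 fell with siCyclin K#1 and 2 rose and 5 fell with siCyclin K#2, with medians of -0.04 and -0.24. Among expressed genes 36.5% rose and 27.8% fell with siCyclin K#1, and 31.1% rose and 22.4% fell with siCyclin K#2. With so few genes in each set, these counts are coarse. The medians of the 2 sets were thus close with siCyclin K#2, and the difference between genes with and without the element was not tested. The genomic span was 3.02 to 511 kb, with a median of 37.2 kb. Its median was 21.2 kb for the genes that rose with siCyclin K#1 and 42.1 kb for those that fell, and it was 21.2 kb and 32.9 kb with siCyclin K#2. Genes not called had medians of 37.2 kb with siCyclin K#1 and 42.9 kb with siCyclin K#2, the latter above that of the genes that fell. The ranges overlapped widely, since the shortest gene, MARS2, fell and the longest, FARS2, was called higher with siCyclin K#1.

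Members of the multi-synthetase complex were called in both directions. Of its 8 enzyme genes (DARS, EPRS, IARS, KARS, LARS, MARS, QARS and RARS), 3 rose and 3 fell with siCyclin K#1, and 1 rose and 5 fell with siCyclin K#2. With siCyclin K#1 37.5% went each way, beside 36.5% and 27.8% of expressed genes. After siCyclin K#2 12.5% rose and 62.5% fell, beside 31.1% and 22.4%, and the difference was not tested. The 5 that fell include DARS and QARS, whose calls with siCyclin K#2 were lost in several alternatives. The scaffold gene AIMP1 rose with both siRNAs, from 10.5 ± 0.902 FPKM to 14.1 ± 0.496 and 14.8 ± 0.403 (adjusted p = 0.00055 and 0.0003). AIMP2 was lower with siCyclin K#2 (-0.19, adjusted p = 0.0094) and EEF1E1 higher (0.14, adjusted p = 0.043), and neither was called with siCyclin K#1.

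Genes that act next to the synthetases on tRNA moved as follows. XPOT, which exports tRNA from the nucleus, fell from 42.0 ± 0.231 FPKM to 22.9 ± 0.338 and 30.6 ± 1.17 (log2 -0.87, adjusted p = 2.3e-07, and -0.45, adjusted p = 1.6e-05). TRNT1, which adds the CCA end to which the amino acid is joined, fell from 6.66 ± 0.465 FPKM to 3.83 ± 0.271 and 5.04 ± 0.118 (adjusted p = 3e-05 and 0.0027). Of the 5 genes of tRNA end processing, export and proofreading, these 2 were called with siCyclin K#1, both lower. With siCyclin K#2 these and DTD2 were called, all lower. The shares of expressed genes called lower were 27.8% and 22.4%, and the difference from this short list was not tested. The call of DTD2 was near the threshold (-0.23, adjusted p = 0.04). DTD1, DTD2 and AARSD1 were on rows joined with neighbours.

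Of the 6 mitochondrial partners, MTFMT, which formylates the initiator methionine on its tRNA, rose from 3.71 ± 0.0206 FPKM to 4.54 ± 0.205 and 4.81 ± 0.483 (adjusted p = 0.015 and 0.0061). QRSL1, a subunit of the amidotransferase that makes mitochondrial glutaminyl-tRNA, fell with siCyclin K#1 (-0.20, adjusted p = 0.027), as did the mitochondrial elongation factor TUFM (-0.10, adjusted p = 0.024). GATC was on a row joined with COX6A1 and lower with both siRNAs, and GATB and TSFM were called with neither.

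Selenocysteine is made on serine-charged tRNA. PSTK, the kinase of that route, rose from 0.669 ± 0.0473 FPKM to 2.35 ± 0.0592 and 1.90 ± 0.0861 (log2 1.68, adjusted p = 9.4e-07, and 1.38, adjusted p = 5.7e-06). SEPHS2, which makes the selenium donor, fell from 30.3 ± 0.887 FPKM to 23.8 ± 1.18 and 19.2 ± 0.684 (adjusted p = 0.00032 and 1.1e-05), and SEPSECS was called with neither siRNA. Elongation factor 1 brings charged tRNA to the ribosome. EEF1A1, its main form, fell from 891 ± 53.7 FPKM to 766 ± 3.54 and 778 ± 47.8 (adjusted p = 0.0094 and 0.020), and EEF1A2 rose from 15.7 ± 0.668 FPKM to 23.6 ± 0.749 and 32.3 ± 1.40 (adjusted p = 1.4e-05 and 9.8e-07). EEF1B2 and EEF1G, both on joined rows, were lower with both siRNAs, and EEF1D was called with neither.

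Of the ATF4 pathway, 16 of 17 listed genes were found. With siCyclin K#1 9 rose and 5 fell, and with siCyclin K#2 8 rose and 3 fell. With siCyclin K#1 the shares were 56.2% and 31.2%, beside 36.5% and 27.8% of expressed genes. They were 8 of 16 and 18.8% with siCyclin K#2, beside 31.1% and 22.4%, and the difference was not tested. ATF4 itself fell from 94.3 ± 0.714 FPKM to 55.5 ± 2.34 and 72.6 ± 1.09 (log2 -0.76, adjusted p = 4.1e-07, and -0.38, adjusted p = 4.4e-05), and the siRNAs differed by -0.39. Target genes went in both directions. The 4 with the largest changes are given first. SESN2, a sensor of leucine in growth control, rose by 2.15 (adjusted p = 1.4e-07) and 0.55 (adjusted p = 0.0007). DDIT4, an inhibitor of the growth kinase mTORC1, rose by 2.05 (adjusted p = 6.5e-08) and 1.15 (adjusted p = 2.8e-06). TRIB3, which restrains ATF4, rose by 1.02 (adjusted p = 2.4e-06) and 1.53 (adjusted p = 5.9e-07), and the stress factor ATF3 by 1.75 (adjusted p = 0.00086) and 0.91 (adjusted p = 0.033). ATF4 and the next genes are named for their roles, after their values were seen. DDIT3, a factor of the stress response on a row joined with AC022506.1, was at 2.29 ± 0.421 FPKM in the controls and rose to 4.13 ± 0.395 and 5.07 ± 0.317 (adjusted p = 0.00085 and 0.00021). It is the gene that overlaps exons of MARS. SLC7A11, the cystine importer, fell from 55.1 ± 2.54 FPKM to 19.3 ± 0.408 and 42.9 ± 1.21 (adjusted p = 4e-08 and 0.00019). SLC7A5, the importer of leucine and other large amino acids, was at a mean of 111, 119 and 217 FPKM in scrambled siRNA, siCyclin K#1 and siCyclin K#2, so its rise was mostly with siCyclin K#2 (log2 0.10 and 0.96, with a difference of -0.87 between the siRNAs).

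**Figure D4:**
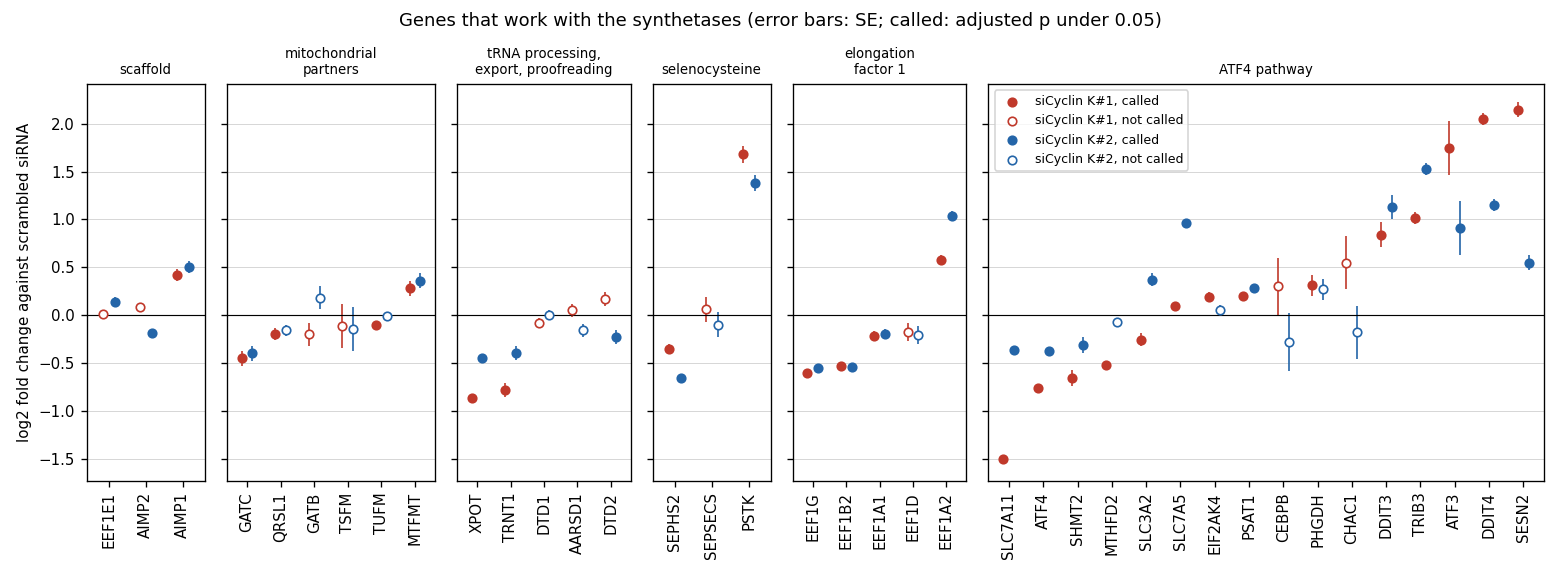
The log2 fold change against scrambled siRNA of genes that work with the synthetases, for both siRNAs, with SE as error bars and filled points for an adjusted p below 0.05. ATF4 and SLC7A11 lie below 0 and SESN2, DDIT4 and TRIB3 above 0 with both siRNAs, and PSTK rises by 1.68 and 1.38.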

How the data were processed

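RNA was measured in 9 A549 libraries, with groups and replicate numbers taken from the labels. The authors deposited 1 file of FPKM values a library, which StringTie 1.3.3b produced according to their processing notes. The aligner, filters and strand are not given in the sources used here. Of 29648 single gene identifiers 29179 had the coordinates of GENCODE 29 (GRCh38). Each file holds 56252 features, and 25125 of them without a reference gene were left out. Rows of the same gene were summed. No pair of replicates was a duplicate, with at most 0.0178% of 11243 genes at identical values. A row that joins several genes was kept under each symbol.

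A gene entered the test when 3 or more libraries reached 0.1 FPKM. The test was limma 3.58.1 (R 4.3.3; lmFit, contrasts, eBayes with trend) on the log2 of FPKM plus a pseudocount of 0.1, with 3 groups in 1 fit and Benjamini-Hochberg adjustment over all genes. A fold change on this scale understates that of low genes. With 3 against 3 libraries no exact permutation test of single genes can reach 0.05, since its smallest p is 0.1. On simulated data for siCyclin K#1 against scrambled siRNA (21048 genes) the fit called 67 of 100 genes changed by a log2 of 0.5, 90 of 100 changed by 1, and 11 of 20848 unchanged genes. Far fewer genes were changed there than were called in the data, so the adjustment was stricter in the simulation. These rates therefore do not carry over to the data. Reads were estimated from low FPKM values, of which 95.0% to 95.8% were whole multiples of the value of a single read. Promoter sequences are those of RefSeq, matched by identifier or symbol with Python 3.11.15.

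The members, gene lists and tests were chosen with earlier results of these data known. All members are accounted for, called members are named, library values are given for the largest changes, and up to 4 called genes are named per further list by the size of their change. Other genes are named after their values were seen. Alternatives were other pseudocounts, filters, scalings, moderation, groupings, thresholds, a replicate block and leaving out each library.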

Additional observations from a re-analysis of the deposited data

Results flagged for a closer look

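LARS and QARS were taken up because the siRNAs moved them in opposite directions from the same controls, each passing the test, and the direct comparison passed it too. The difference of siCyclin K#1 minus siCyclin K#2 was 0.38 ± 0.040 on the log2 scale for LARS (adjusted p = 0.00017) and 0.63 ± 0.058 for QARS (adjusted p = 7.1e-05). Their individual calls were less firm than this difference. The rise of LARS with siCyclin K#1 had an adjusted p of 0.050 after median-ratio rescaling, and the fall of QARS with siCyclin K#2 had adjusted p of 0.052 to 0.14 in the settings that lost it. The cause of these differences was not tested.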

How the results depend on the processing

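Of the called genes, 18 of 22 (siCyclin K#1), 18 of 20 (siCyclin K#2) and 12 of 19 (siRNA against siRNA) were called in every alternative fit. At a fold change over 3 with an unadjusted p below 0.01, 0 members were called in all 3 comparisons, and at a fold change over 2, added after seeing the data, 2, 1 and 0. The cytosolic median for siCyclin K#1, -0.07, was -0.12 after median-ratio rescaling and -0.11 to -0.06 on leaving out 1 library. The cytosolic median for siCyclin K#2 was -0.24 and that between the siRNAs 0.06 after quantile normalization, which also moved the median of all genes for siCyclin K#1 from 0.102 to -0.0188. EPRS turned from -0.02 to 0.10 with siCyclin K#1 there (adjusted p = 0.034), while the median of all genes moved down. The mitochondrial median for siCyclin K#1, 0.09, was 0.04 after median-ratio rescaling, 0.0 after quantile normalization and 0.04 to 0.16 on leaving out 1 library. For siCyclin K#2 the mitochondrial median was 0.17 to 0.26 on leaving out 1 library. The mitochondrial median between the siRNAs, -0.21, was -0.14 with a pseudocount of 1 and -0.21 to -0.14 on leaving out 1 library. Genes lower in the direct comparison of the siRNAs, 11 in all, were 6 to 11 on leaving out 1 library, with 6 without siCyclin K#1 replicate 2 and 7 without siCyclin K#2 replicate 3. The cause was not tested. Same-numbered libraries did not deviate together (correlations of -0.0711 to 0.0379 over 11243 genes), so the numbers do not pair them. With the number as a replicate block, 10 genes were higher and 10 lower for siCyclin K#1, 9 and 12 for siCyclin K#2, and 7 and 9 between the siRNAs. Depth limits PARS2 most, with at least 92 estimated reads.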
